A study of Mus musculus with 70 samples.

Results

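The genes described here are 10 inflammatory cytokines and chemokines: Cxcl1, Cxcl2, Cxcl5, Cxcl15, Ccl2, Ccl20, Ccl8, Il6, Il1b and Tnf. They were found on the array by gene symbol, which gave 13 probe sets, and each gene was represented by its probe set with the highest mean over the 70 arrays. Of the 10 genes, 8 passed a filter on dim probe sets that kept 14593 of 18193 genes. Cxcl2 (mean log2 signal 3.69) and Il6 (mean 3.55) lay under that filter, whose limit was 4.25, and their values come from a fit without it. All 10 symbols were measured, so no gene of the list is missing.

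The study measured RNA from the right lobe of the lung in female B6C3F1 mice, a hybrid strain used in rodent cancer bioassays, after 13 weeks of exposure to 1 of 13 chemicals or to vehicle alone. It set chemicals that are lung carcinogens in female mice (positive, 7) against chemicals that are not (negative, 6). The mice were 18 weeks old at collection and fell into 2 animal sets, told apart by the first number of the animal identifier, with 18 arrays in set 1 and 52 in set 2. In set 1, 3 mice each received 1,5-naphthalenediamine (2000 ppm), N-(1-naphthyl)ethylenediamine dihydrochloride (2000 ppm) or pentachloronitrobenzene (8187 ppm) in feed, or 2,3-benzofuran (240 mg/kg) by gavage in corn oil, beside 3 feed controls and 3 corn oil controls. In set 2, 4 mice each received 4-nitroanthranilic acid (10000 ppm), 1250 ppm of 2,2-bis(bromomethyl)-1,3-propanediol, diazinon (200 ppm) or malathion (16000 ppm) in feed, of which diazinon and malathion are organophosphate insecticides. Another 4 mice each received 1,2-dibromoethane (62 mg/kg), benzene (100 mg/kg) or coumarin (200 mg/kg) in corn oil, or 2-chloromethylpyridine hydrochloride (250 mg/kg) or N-methylolacrylamide (50 mg/kg) in water. Set 2 had 4 feed controls, 8 corn oil controls and 4 water controls. Positive chemicals were 1,5-naphthalenediamine, 2,3-benzofuran, 2,2-bis(bromomethyl)-1,3-propanediol, 1,2-dibromoethane, benzene, coumarin and N-methylolacrylamide. Feed was given on 7 days a week and gavage on 5 days a week. Each chemical was tested at 1 dose and 1 time, and chemicals of the same vehicle and set share their controls.

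Chemokines are small secreted proteins that draw white blood cells along a gradient into tissue, and each family of them acts through its own receptors. Cxcl1, Cxcl2, Cxcl5 and Cxcl15 belong to the CXC family and recruit neutrophils, the first 3 through the receptor Cxcr2, while Cxcl15 is known as lungkine for its production by lung epithelium. Ccl2 and Ccl8 recruit monocytes and other leukocytes, and Ccl20 draws cells that carry Ccr6, among them dendritic cells, B cells and Th17 cells. Il1b, Il6 and Tnf are cytokines that act on many cell types, and the transcription factor NF-kappaB drives many of these genes after injury or infection.

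The upstream promoter bases of 5 genes are shown, some with and some without a match to GGANTTTCC, 1 form of the NF-kappaB core. Of the 10 genes, 8 had an entry in the RefSeq promoter table of build GRCm38.p6, and the 250 bases before each start were searched on both strands for GGANTTTCC, an NF-kappaB core, and for TGACTCA, an AP-1 site. The NF-kappaB core was found in 3 genes, Cxcl1, Cxcl2 and Il6, and in 1.07% of 32851 promoters of that length. In Cxcl1 it starts 70 bases before the transcription start, in Cxcl2 96 bases before it and in Il6 43 bases before it, each on the strand of the gene. The AP-1 letters were found in Il6 alone, 249 bases before the start on the opposite strand, and in 4.46% of all promoters. The 2 motifs do not overlap in Il6. The 150 bases before the start are given 5′ to 3′ on the strand of the gene, with the NF-kappaB core in capitals. They lie at chr5:90891095-90891244 for Cxcl1, chr5:90903749-90903898 for Cxcl2, chr5:30012964-30013113 for Il6, chr11:82115035-82115184 for Ccl8 and chr1:83116616-83116765 for Ccl20, all on the plus strand of GRCm38.p6. Ccl8 and Ccl20, the genes that rose in 1 group below, held neither set of letters in the searched window, and Cxcl15, Il1b and Tnf held neither as well. Other forms of these sites were not searched for, so a gene without the letters may still hold a site.
Cxcl1: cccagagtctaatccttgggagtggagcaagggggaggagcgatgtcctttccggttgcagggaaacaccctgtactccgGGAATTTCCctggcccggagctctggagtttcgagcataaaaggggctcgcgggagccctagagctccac
Cxcl2: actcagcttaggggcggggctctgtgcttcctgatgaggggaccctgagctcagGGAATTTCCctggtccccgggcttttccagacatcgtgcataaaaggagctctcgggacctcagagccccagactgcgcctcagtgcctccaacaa
Il6: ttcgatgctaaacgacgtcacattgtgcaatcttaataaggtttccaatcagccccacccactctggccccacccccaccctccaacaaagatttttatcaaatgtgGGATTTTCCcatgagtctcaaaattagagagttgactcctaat
Ccl8: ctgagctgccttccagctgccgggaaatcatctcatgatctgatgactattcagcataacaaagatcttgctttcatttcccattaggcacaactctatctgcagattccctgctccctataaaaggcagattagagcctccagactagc
Ccl20: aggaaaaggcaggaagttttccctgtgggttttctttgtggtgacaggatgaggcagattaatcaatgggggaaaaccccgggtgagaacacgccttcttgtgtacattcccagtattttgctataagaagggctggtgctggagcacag

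The mean signal of alveolar type II cell markers lay between 12.0 and 12.6 in all 70 lungs, so the epithelial markers of the labelled tissue were present in each. The signal of 3′ minus 5′ control probe sets, a measure of RNA integrity, ran from 0.08 to 0.99, the RNA integrity number, given for 57 arrays, from 7.1 to 9.4, and array medians from 5.41 to 5.52. The mean of the neutrophil markers ran from 6.05 to 9.10 over the lungs. The highest value of the neutrophil markers came from animal 2-54 and the highest 3′ minus 5′ value from animal 2-56, both given 1,2-dibromoethane.

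Over the 13 chemicals, 2 of the 104 tests of the 8 filtered genes passed an adjusted p under 0.05 (limma, Benjamini-Hochberg over all genes tested), which is 1.92%, and both were in lungs of mice fed 1,5-naphthalenediamine. Over all genes, 2.57% of 189709 tests passed. Ccl8 and Ccl20 rose in that group, and 140 of the 14593 genes rose there, which is 0.959% (1.11% in either direction). Among the genes that passed the filter, 4 of 8 had groups that did not overlap, against 20.2% of all genes, and 7 of 8 differences were above 0. The median difference of the 8 genes was 0.22 on the log2 scale, beside a median of -0.02 for all genes. Tests at an unadjusted p under 0.05 numbered 9 of 104 over the 13 chemicals. Over all genes, 272 to 5045 of 14593 lay under that level by chemical, with 1292 for 1,5-naphthalenediamine.

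**Figure D1:**
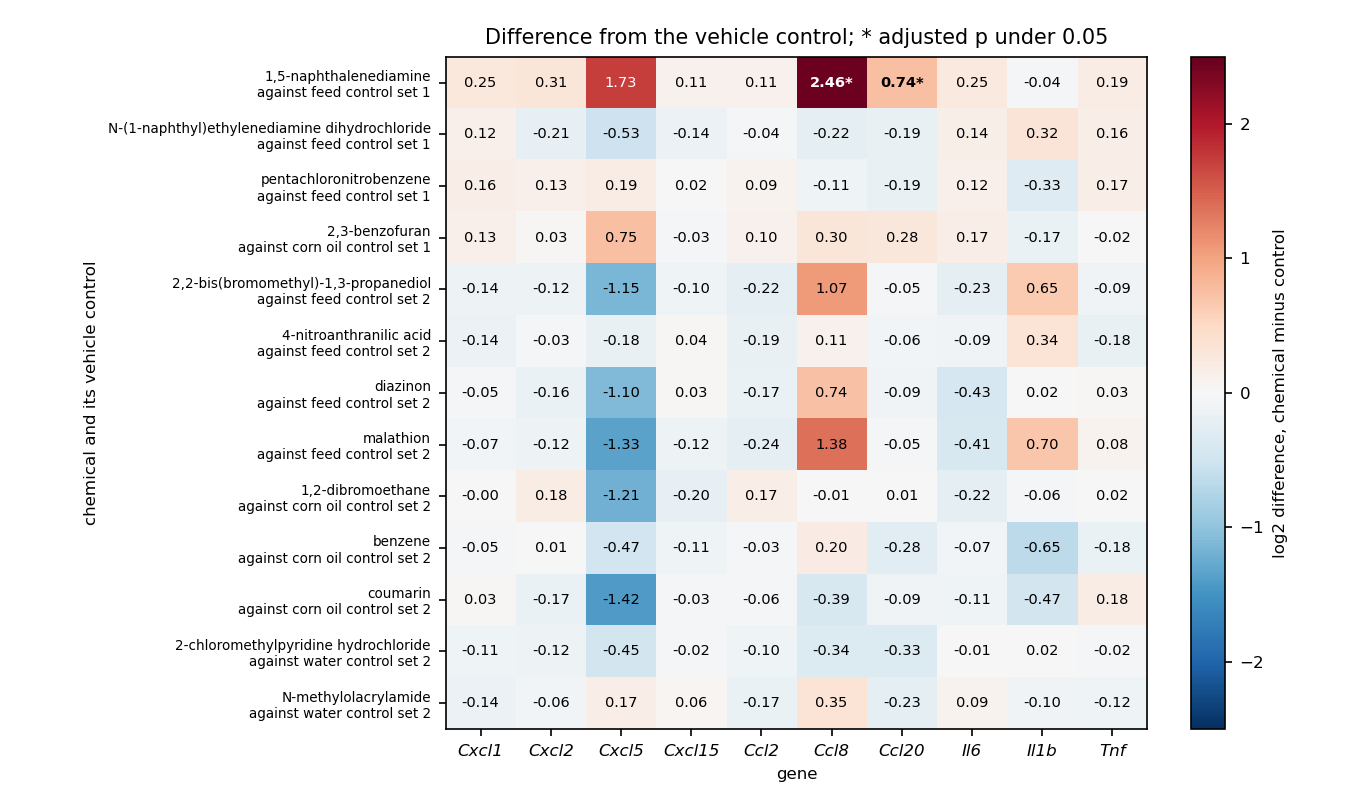
Each cell gives the log2 difference between a chemical's group mean and the mean of its vehicle control of the same animal set, for 10 genes (columns) and 13 chemicals (rows), coloured from blue (lower) to red (higher). The 2 starred cells, Ccl8 at 2.46 and Ccl20 at 0.74 under 1,5-naphthalenediamine, are those with an adjusted p under 0.05.

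Ccl8, also known as monocyte chemoattractant protein 2, differed from its controls most of all 10 genes. Its log2 signal was 9.16, 7.83 and 7.73 in the 3 mice fed 1,5-naphthalenediamine and 5.98, 5.94 and 5.43 in their feed controls. All 3 treated lungs lay above all 3 controls, and animal 1-2 was the highest. The mean difference was 2.46 ± 0.59 log2 units (SE, n = 3 and 3), with a 95% interval of 1.27 to 3.64 and an adjusted p of 0.0144 (limma). Leaving out animal 1-2 gave a difference of 2.00 with an adjusted p of 0.189, and leaving out feed control 1-29 gave 2.28 with an adjusted p of 0.138, so the call rests on these animals, while leaving out any of the other 4 kept it.

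Ccl20, the only ligand of Ccr6 among chemokines, was 5.61, 5.54 and 6.18 in the treated lungs and 5.07, 5.13 and 4.90 in the controls. The groups did not overlap, and animal 1-5 was the highest of all 70 lungs. The difference was 0.74 ± 0.16 log2 units (SE, n = 3 and 3, 95% interval 0.43 to 1.06, adjusted p = 0.00347, limma). Without animal 1-5 the difference was 0.54 (adjusted p = 0.180), and without feed control 1-29 it was 0.68 (adjusted p = 0.0614). The probe set had a mean of 5.26 over all arrays, and a filter at the 50th percentile would have left it out.

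**Figure D2:**
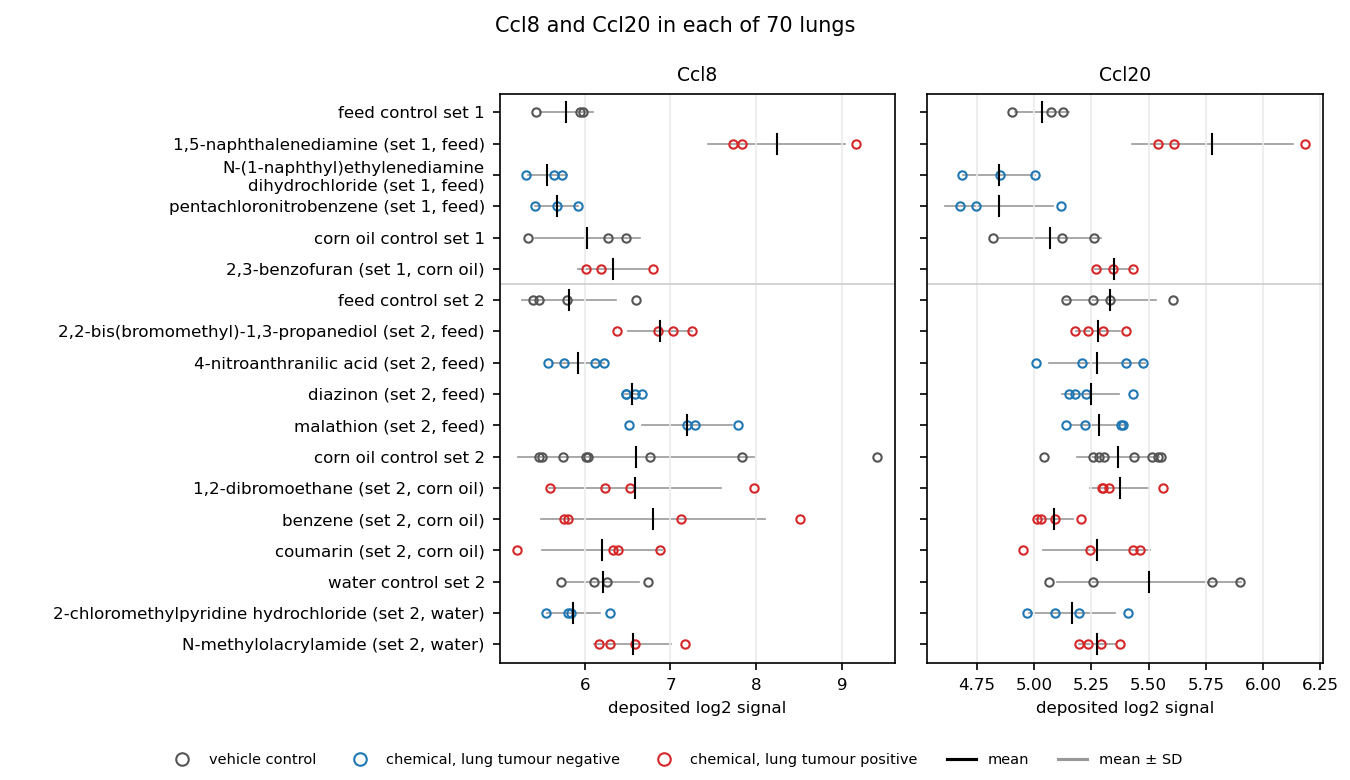
Deposited log2 signal of Ccl8 (left) and Ccl20 (right) in each of 70 lungs, with 1 row per group; circles are mice, black ticks group means and grey lines the mean ± SD. The 3 mice fed 1,5-naphthalenediamine sit at 7.73 to 9.16 for Ccl8 and 5.54 to 6.18 for Ccl20, above their 3 feed controls, while single mice of other groups, such as a corn oil control at 9.42, are as high for Ccl8.

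The other 6 filtered genes were not called in the mice fed 1,5-naphthalenediamine. Cxcl5, made largely by epithelial cells in the lung, was 6.14, 4.62 and 6.88 there and 4.64, 4.28 and 3.54 in the controls. The groups overlapped by 1 animal on each side, and the difference was 1.73 ± 0.87 (SE, adjusted p = 0.567). Cxcl1 had groups that did not overlap (7.33 to 7.39 against 7.09 to 7.11), with a difference of 0.25 ± 0.12 and an adjusted p of 0.503. Cxcl15 likewise lay at 13.49 to 13.53 against 13.37 to 13.43, a difference of 0.11 ± 0.09 (adjusted p = 0.820). Differences of Ccl2, Il1b and Tnf were 0.11, -0.04 and 0.19. Cxcl2 and Il6, under the filter, differed by 0.31 and 0.25.

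The genes around these ligands were read from lists of receptors, inhibitors and related factors. None of the 12 receptors, 10 inhibitors, 13 other CC chemokines, 14 other interleukins and growth factors, 18 NF-kappaB subunits and targets or 7 inflammasome genes tested was called in the mice fed 1,5-naphthalenediamine, with list medians between -0.05 and 0.09. Among 10 other CXC, CX3C and XC chemokines, 1 rose and 1 fell. Cxcl17, a chemokine of mucosal epithelium, rose by 1.60 ± 0.32 (adjusted p = 0.00153), and Cxcl12, which retains and guides leukocytes through Cxcr4, fell by 0.54 (adjusted p = 0.0489, limma).

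Some cell markers were also called in the mice fed 1,5-naphthalenediamine, where 0.959% of all genes rose and 1.11% were called in either direction. The counts by list were not tested against these shares. The B and plasma cell list had 3 of 9 tested genes that rose, namely Ighm, the heavy chain of IgM, by 3.84 (adjusted p = 0.00827), Jchain, which joins secreted antibody units, by 3.61 (adjusted p = 0.00153) and Mzb1, a folding factor of antibody-producing cells, by 1.97 (adjusted p = 2.05e-06). The mean log2 signal of that list was 9.07 to 9.65 in the treated lungs and 7.79 to 8.41 in the controls, with no overlap. That mean includes the 3 called genes and is carried largely by them, so it does not show a rise across the list. Of 13 neutrophil markers, Cd177, a surface protein of neutrophils, rose by 3.39 (adjusted p = 2.5e-05), while the median of the list was -0.01 and its mean signal overlapped (6.78 to 7.17 against 6.58 to 6.95). Of 13 alveolar macrophage markers, the scavenger receptor Marco rose by 1.32 and the carbonic anhydrase Car4 fell by 0.51, and none of 12 monocyte and interstitial macrophage markers was called, with a median of 0.27 and a mean signal of 7.99 to 8.18 against 7.65 to 7.96. Of 10 club and secretory cell markers, Chad fell by 1.65 (adjusted p = 0.00024), and none was called among the alveolar type II, ciliated, fibroblast, endothelial, mesothelial, T and NK, and mast cell markers, the immediate early, glucocorticoid-induced and clock genes, whose medians ran from -0.28 to 0.30. The 3′ minus 5′ value was 0.09 to 0.21 in the treated lungs and 0.28 to 0.36 in the controls. With that value as a covariate the difference of Ccl8 was 2.32 (adjusted p = 0.0357) and that of Ccl20 0.76 (adjusted p = 0.00447). The part of the cell markers in these differences was not tested, and in whole lung a change in the number of cells of a type and a change in RNA per cell cannot be told apart.

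A direct comparison was made between 1,5-naphthalenediamine and N-(1-naphthyl)ethylenediamine dihydrochloride, which were fed at the same 2000 ppm for the same 13 weeks. Both hold a naphthalene ring with amino groups, which the former carries as amines on the ring itself while the latter carries an ethylenediamine chain. This was the only pair of chemicals compared. Against N-(1-naphthyl)ethylenediamine dihydrochloride, Ccl8 and Ccl20 were higher in mice fed 1,5-naphthalenediamine, 2 of 8 filtered genes beside 1.49% of all genes higher (1.67% in either direction). Of the 8 genes, 5 had groups that did not overlap, against 22.7% of all genes.

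Ccl8 was 5.64, 5.74 and 5.31 in the mice fed N-(1-naphthyl)ethylenediamine dihydrochloride, below every mouse fed 1,5-naphthalenediamine. The difference was 2.68 ± 0.59 (SE, n = 3 and 3, 95% interval 1.49 to 3.86, adjusted p = 0.00385, limma), and without animal 1-2 it was 2.22 with an adjusted p of 0.0803. Ccl20 was 5.00, 4.68 and 4.85 there, again below every mouse of the other group, with a difference of 0.93 ± 0.16 (95% interval 0.61 to 1.25, adjusted p = 6.04e-05, limma) that stayed called with each animal left out in turn. Cxcl5 was 3.75, 3.46 and 3.67, all lower than the 4.62 to 6.88 of the other group. Its difference of 2.25 ± 0.87 (95% interval 0.52 to 3.99) missed the threshold with an adjusted p of 0.248. Fitted on the arrays of these 2 groups alone, it had an adjusted p of 0.0206.

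For the remaining genes the intervals of this difference were -0.14 to 0.43 for Ccl2, -0.11 to 0.37 for Cxcl1, 0.09 to 0.43 for Cxcl15, -1.59 to 0.88 for Il1b and -0.33 to 0.40 for Tnf. Cxcl2 differed by 0.53 (adjusted p = 0.103 in the fit without a filter) and Il6 by 0.11. Beside these genes, Cxcl17 was higher by 1.91 and Cxcl9, an interferon-induced chemokine for T cells, by 1.08 (adjusted p = 0.0333), and the adhesion molecule Icam1 was lower by a difference of -0.33 (adjusted p = 0.0346). Of the cell markers, Ighm was higher by 4.02, Jchain by 3.75, Cd177 by 3.75, Marco by 2.29 and Cd14 by 0.89, and 4 of 10 ciliated cell markers were higher (Cfap126, Pifo, Rsph1 and Ccdc113, by 0.67 to 0.95). The 3′ minus 5′ values, 0.13 to 0.40 against 0.09 to 0.21, overlapped. Of 12 clock genes, Tef, a transcription factor of the daily cycle, was lower by a difference of -1.01 (adjusted p = 0.0109), with a list median of -0.92. Against the shared feed controls, N-(1-naphthyl)ethylenediamine dihydrochloride gave 0 called genes of 8, with 0 at an unadjusted p under 0.05 and 0.00685% of all genes called. Its differences ran from -0.53 for Cxcl5 to 0.32 for Il1b.

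The other 11 chemicals gave no called gene of the 8, and the shares of all genes called in them ranged widely. The share was 17.9% for N-methylolacrylamide, 4.09% for coumarin, 4.07% for 2,3-benzofuran, 4.03% for 1,2-dibromoethane and 2.19% for malathion. It was 0.0891% for benzene, 0.00685% for each of pentachloronitrobenzene and diazinon, and 0.0% for 4-nitroanthranilic acid, 2,2-bis(bromomethyl)-1,3-propanediol and 2-chloromethylpyridine hydrochloride, where 272, 1568 and 1710 genes had an unadjusted p under 0.05. At that level 1 of the 8 genes passed in each of benzene, 2,2-bis(bromomethyl)-1,3-propanediol, malathion, coumarin, 2-chloromethylpyridine hydrochloride and 1,2-dibromoethane, and 0 in the other 5. Of all 14593 genes, 1382 passed at that level in benzene, 2551 in malathion, 2432 in coumarin and 2822 in 1,2-dibromoethane. N-methylolacrylamide, with 2605 called genes, gave differences of -0.23 to 0.35 among the 8. In simulated data with known changes, the same fit recovered 58.2% of genes changed 1.5-fold and 85.1% of those changed 2-fold with 3 animals a group (1,5-naphthalenediamine), and 82.1% and 95.5% with 4 animals against 8 (coumarin). The changed genes were drawn from all genes tested, and 4 animals against 4 were not simulated. Noise was drawn independently for each gene from a normal distribution, and 67 genes were changed at each of these folds. Other numbers of changed genes were not simulated. Ccl8, Il1b and Cxcl5 had wide spreads within groups (SD 0.75, 0.79 and 1.11), so these shares cannot be read as theirs.

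Ccl8 had its largest uncalled difference from controls in malathion. Ccl8 was 6.51, 7.28, 7.79 and 7.19 in the mice fed malathion and 5.39, 6.59, 5.47 and 5.79 in their feed controls. Only the lowest treated mouse and the highest control overlapped. The difference was 1.38 ± 0.51 (SE, n = 4 and 4, 95% interval 0.36 to 2.41, adjusted p = 0.133, limma). A fit on these 8 arrays alone gave an adjusted p of 0.0414 (limma), while 17 of 20 alternatives left the difference uncalled. All 13 neutrophil markers tested were above 0 there, with a median of 0.51 and 0 called, and Cd79a, a B cell receptor chain, rose by 1.19 (adjusted p = 0.0476). Ccl8 differed by 1.07 ± 0.51 under 2,2-bis(bromomethyl)-1,3-propanediol (adjusted p = 0.449) and by 0.74 under diazinon, against the same feed controls. Malathion also came with called changes in 1 of 12 receptors, the TNF receptor Tnfrsf1a (higher by 0.38, adjusted p = 0.0334), and in Il16 (higher by 0.53, adjusted p = 0.0458).

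Cxcl15 had the narrowest spread within groups of all 10 genes, with an SD of 0.09 log2 units around group means. In mice given 1,2-dibromoethane it was 13.10, 12.86, 12.99 and 13.27, and in the 8 corn oil controls it ran from 13.13 through a median of 13.26 to 13.40. The groups overlapped, with 3 of 4 treated mice below all controls. The difference was -0.20 ± 0.06 (SE, n = 4 and 8, adjusted p = 0.0621, limma). Leaving out animal 2-58 gave -0.27 (adjusted p = 0.0189) and leaving out corn oil control 2-132 gave -0.22 (adjusted p = 0.0454), so whether it passed depended on single mice. Of 9 alveolar type II cell markers, 5 were lower in the same comparison, with a list median of -0.21, where 305 of 14593 genes were called lower. The mean signal of that list was 12.20, 12.07, 12.19 and 12.47 in the 4 treated mice and 12.27 to 12.54 in the controls. The 3′ minus 5′ value of animal 2-56 was 0.99, the highest of all lungs. The second probe set of Cxcl15, which correlated with the first at r = 0.85 over 70 arrays and at 0.74 with the mean of each animal set taken off, was 12.20 to 12.98 there and 12.28 to 12.96 in the controls.

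Cxcl5 varied more than any other of the 10 genes, with an SD of 1.11 within groups and a range of 30.3-fold between the lowest and the highest lung. Its mean of 4.43 lay only just above the filter limit of 4.25, and its lowest lung, at 3.28, lay under that limit. All lungs of the coumarin, 1,2-dibromoethane, 2-chloromethylpyridine hydrochloride and N-(1-naphthyl)ethylenediamine dihydrochloride groups lay under that limit as well, at 4.16 or lower. Cxcl5 thus has a fold range that is counted from a dim signal. In set 2 its largest difference was in coumarin, at 3.28, 3.58, 3.70 and 3.90, against 3.53, 3.75, 3.79, 4.04, 4.30, 6.47, 6.56 and 7.81 in the 8 corn oil controls. The treated mice lay within or below the lower part of the controls, and the difference of -1.42 ± 0.65 had an adjusted p of 0.240 (limma). Of the 8 controls, 3 lay above 6, animals 2-93, 2-95 and 2-97, whose numbers lie close together. Control 2-99 was next at 4.30. The difference thus depends on which controls are used, and a part of the animal number was not tested. Single lungs of other groups were also high, at 8.20 and 6.42 in 2 feed controls of set 2, 8.09 in a mouse fed 4-nitroanthranilic acid and 6.29 in a mouse fed diazinon. Of the 13 differences of Cxcl5 from controls, 4 were above 0, and those of set 2 that share feed controls with the high lungs were -1.33 for malathion, -1.15 for 2,2-bis(bromomethyl)-1,3-propanediol, -1.10 for diazinon and -0.18 for 4-nitroanthranilic acid.

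**Figure D3:**
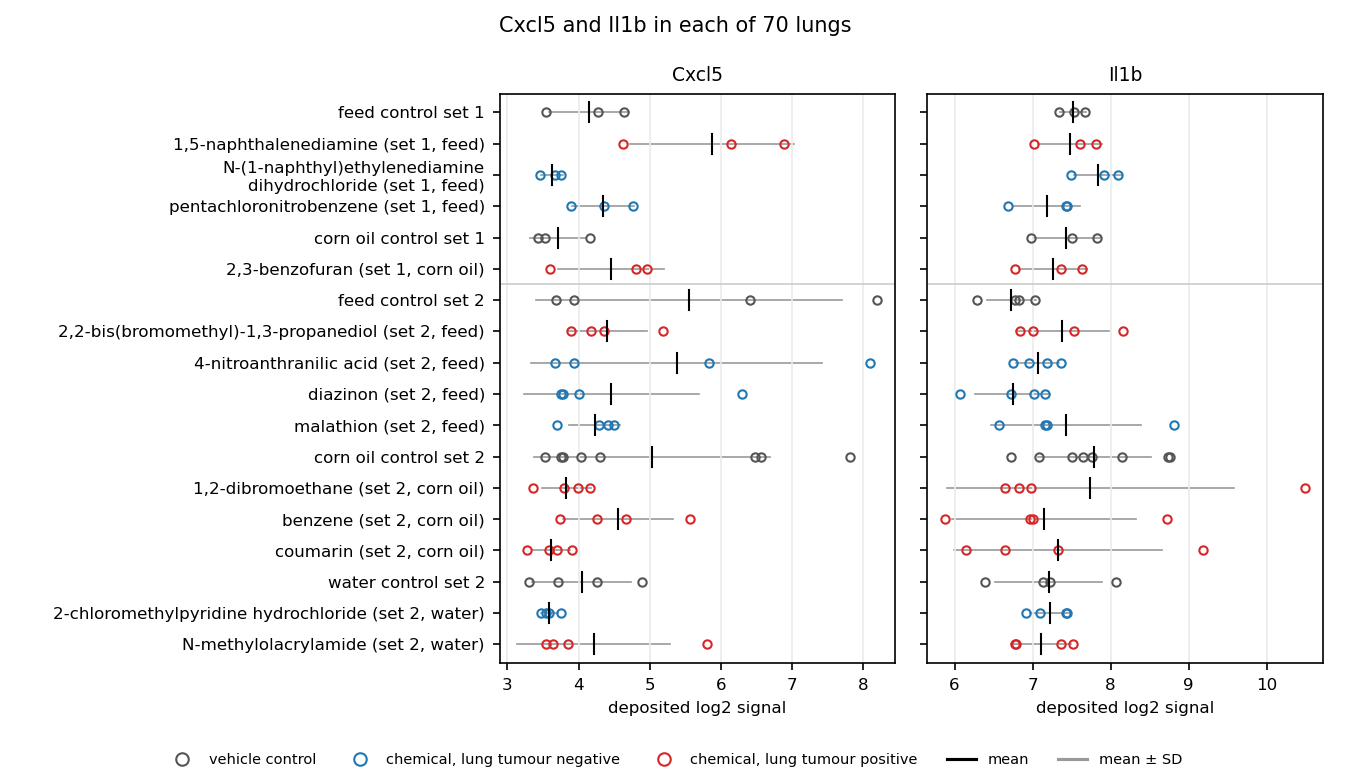
Deposited log2 signal of Cxcl5 (left) and Il1b (right) in each of 70 lungs, with 1 row per group; circles are mice, black ticks group means and grey lines the mean ± SD. Single mice stand far above the rest of their group, among them feed control 2-42 at 8.20 for Cxcl5 and animal 2-54, given 1,2-dibromoethane, at 10.49 for Il1b.

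Cxcl1 was measured by 3 probe sets that did not move together closely. The probe set chosen by its mean, the _x_at set, had an SD of 0.16 over the 70 arrays, the _s_at set an SD of 0.36, and the _at set an SD of 0.67. In Affymetrix names _at marks a set designed as unique to its gene, _s_at a set shared by related transcripts and _x_at a set with probes that can match other sequences. Over 70 arrays the chosen set correlated with the _at set at r = 0.37 and with the _s_at set at r = 0.57, and the _at and _s_at sets with each other at r = 0.80. With the mean of each animal set taken off these were 0.13, 0.37 and 0.69. No probe set of Cxcl1 was called in any of the 13 chemicals. In mice given coumarin the _s_at set differed by -0.45 ± 0.15 (adjusted p = 0.117) and the _at set by -0.71 ± 0.30 (adjusted p = 0.259), beside 0.03 for the chosen set. In mice fed 1,5-naphthalenediamine the _at set was 4.83 to 5.93 against 4.17 to 5.17 in the controls, which overlapped. Between sets of animals the _at set had a mean of 4.77 in set 1 and 5.62 in set 2, and chemicals were compared with controls of their own set only.

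**Figure D4:**
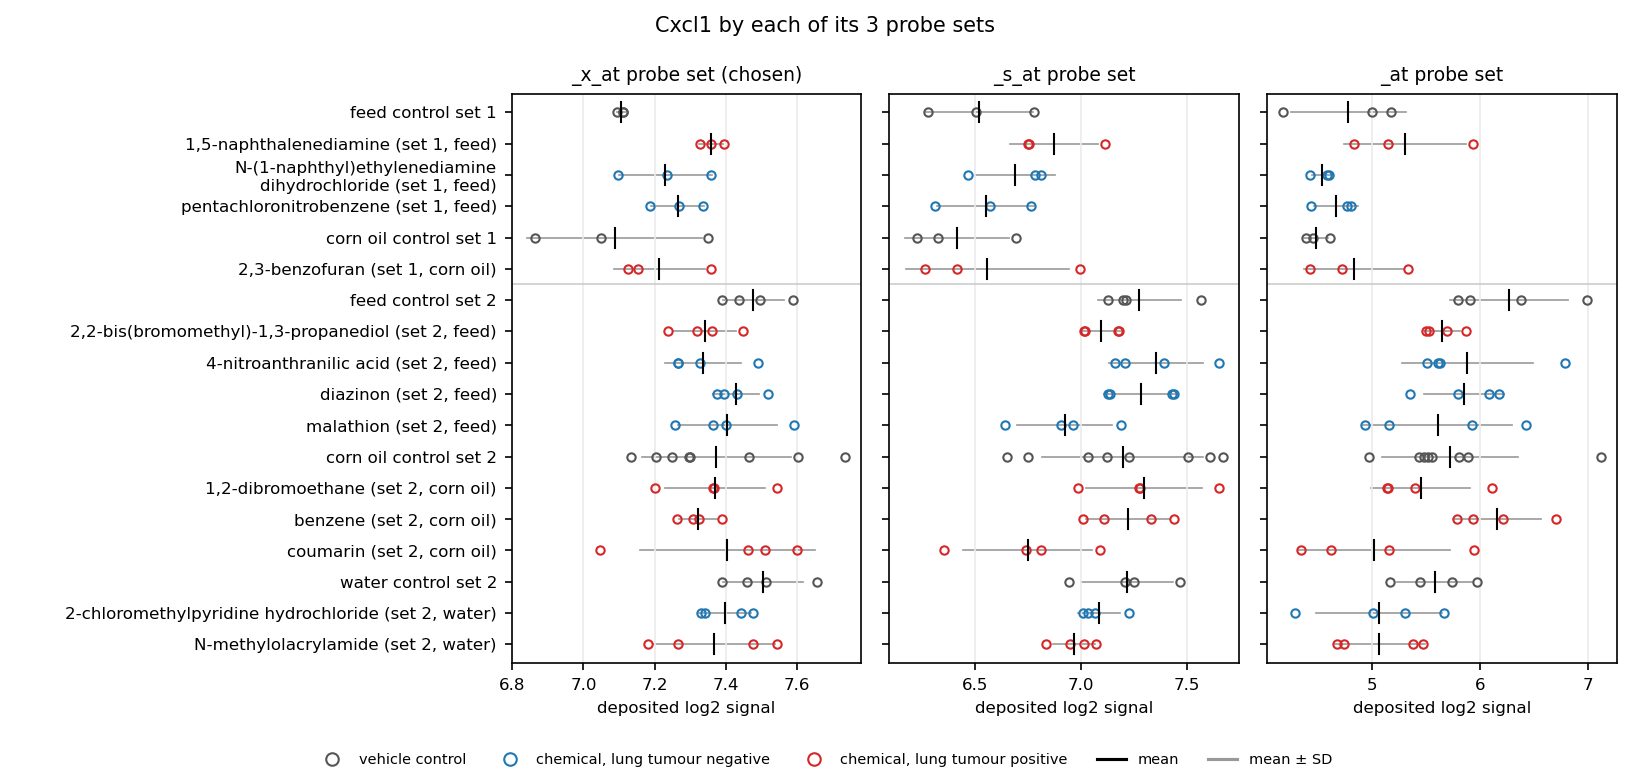
Deposited log2 signal of Cxcl1 in each of 70 lungs by its 3 probe sets, with 1 row per group; circles are mice, black ticks group means and grey lines the mean ± SD, and the 3 horizontal scales differ. The spread over all lungs grows from an SD of 0.16 in the left plot to 0.67 in the right one.

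Cxcl2, a second ligand of Cxcr2, lay between 3.31 and 4.68 in all lungs, and its 13 differences ran from -0.21 to 0.31. Ccl2, the main attractant of inflammatory monocytes, lay between 4.65 and 5.48, and its differences ran from -0.24 in malathion to 0.17 in 1,2-dibromoethane, with 0 at an unadjusted p under 0.05. Ccl20 outside the group fed 1,5-naphthalenediamine had negative differences of -0.33 ± 0.14 in 2-chloromethylpyridine hydrochloride (adjusted p = 0.372) and -0.28 ± 0.12 in benzene (adjusted p = 0.499). Its differences were above 0 in 3 of 13 chemicals.

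Il1b, the product of inflammasome-activated myeloid cells, differed from controls by -0.65 (benzene) to 0.70 (malathion), with 0 of 13 tests at an unadjusted p under 0.05. Its spread within groups was an SD of 0.79. In mice given 1,2-dibromoethane it was 6.65, 10.49, 6.83 and 6.98, so 1 animal, 2-54, lay far above the other 3. The mean of the neutrophil markers was 9.10 in that animal and 6.23, 6.27 and 6.62 in the others. Similar single animals were 2-75 given coumarin (Il1b 9.19, neutrophil marker mean 7.48), 2-36 fed malathion (8.81 and 8.07) and 2-82 given benzene (8.73 and 8.69). Il1b was at a similar level in corn oil controls 2-60 (8.76, neutrophil marker mean 7.62) and 2-134 (8.73 and 7.26). Tnf, a cytokine released early by macrophages, stayed between 5.31 and 6.43 in all lungs, and its 13 differences ran from -0.18 to 0.19. Il6, which drives the acute phase response, was highest in feed control 2-42 (4.69) and in a mouse fed 4-nitroanthranilic acid (4.52). Its differences ran from -0.43 in diazinon to 0.25 in 1,5-naphthalenediamine, and those of diazinon and of malathion (-0.41) had adjusted p-values of 0.903 and 0.237 in the fit without a filter.

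Deviations of single lungs from their own group mean were compared in pairs, 66 in all, with p-values from 100000 permutations within groups and adjusted over the 66. The smallest p these permutations can give is 1e-05 before adjustment. Of 45 pairs of the 10 genes, 5 had an adjusted p of r under 0.05, each with r above 0. Cxcl2 and Il6, with means of 3.69 and 3.55, lay under the filter limit of 4.25, so correlations with them are of dim signals. Cxcl5, with a mean of 4.43, lay only just above that limit, so its low values are dim as well. Il1b followed the mean of the neutrophil markers with r = 0.89 and rho = 0.78 (adjusted p = 0.00022 and 0.00033, permutation, n = 70). Without the 2 lungs farthest out in Il1b r was 0.82, and r was 0.32 in the 18 lungs of set 1 and 0.92 in the 52 of set 2, so the relation rests on set 2. Cxcl5 followed Cxcl1 by its _at probe set with r = 0.66 and rho = 0.64 (adjusted p = 0.00022 and 0.00033, permutation, n = 70), with 0.59 without the 2 farthest lungs, 0.73 in set 1 and 0.66 in set 2. Cxcl5 and Il6 had r = 0.62 and rho = 0.47 (adjusted p = 0.00066 and 0.0158, permutation, n = 70), with 0.43 without the 2 farthest lungs. Within set 1 that relation did not hold (r = -0.25), while it was 0.70 in set 2. Cxcl1 by its chosen probe set followed Tnf with r = 0.67 and rho = 0.57 (adjusted p = 0.00022 and 0.0011, permutation, n = 70), with 0.64 without the 2 farthest lungs and 0.76 and 0.65 within set 1 and set 2. The other three such pairs were Cxcl1 with Ccl2 (r = 0.46, rho = 0.38, adjusted p = 0.0088 and 0.0326, permutation), Ccl2 with Tnf (r = 0.47, rho = 0.39, adjusted p = 0.00704 and 0.0326, permutation) and Cxcl2 with Il6 (r = 0.39, rho = 0.42, adjusted p = 0.0088 and 0.0188, permutation). Without the 2 farthest lungs their r was 0.37, 0.46 and 0.35. Cxcl1 with Ccl2 had r = 0.73 in set 1 and 0.40 in set 2, and Ccl2 with Tnf 0.69 and 0.44, while Cxcl2 and Il6 had -0.24 in set 1 and 0.47 in set 2, so that relation did not hold in set 1. By its _at probe set Cxcl1 had r = -0.25 with Tnf and 0.19 with Ccl2 (adjusted p = 0.212 and 0.282, permutation). That probe set had r = 0.50 with Il6 and 0.48 with Ccl8 (adjusted p = 0.00198 and 0.0088, permutation). Within set 1 and set 2 these were 0.39 and 0.51 for Il6 and 0.13 and 0.52 for Ccl8. Further pairs of the 10 genes passed by rho but not by r. For Ccl20 with Ccl8 rho was 0.34 and r 0.24 (adjusted p = 0.0461 and 0.141, permutation). The others were Ccl20 with Tnf and with Cxcl1, Cxcl5 with Ccl8 and with Ccl2, and Ccl2 with Ccl8. Their adjusted p of rho was 0.0158 to 0.039 (permutation).

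**Figure D5:**
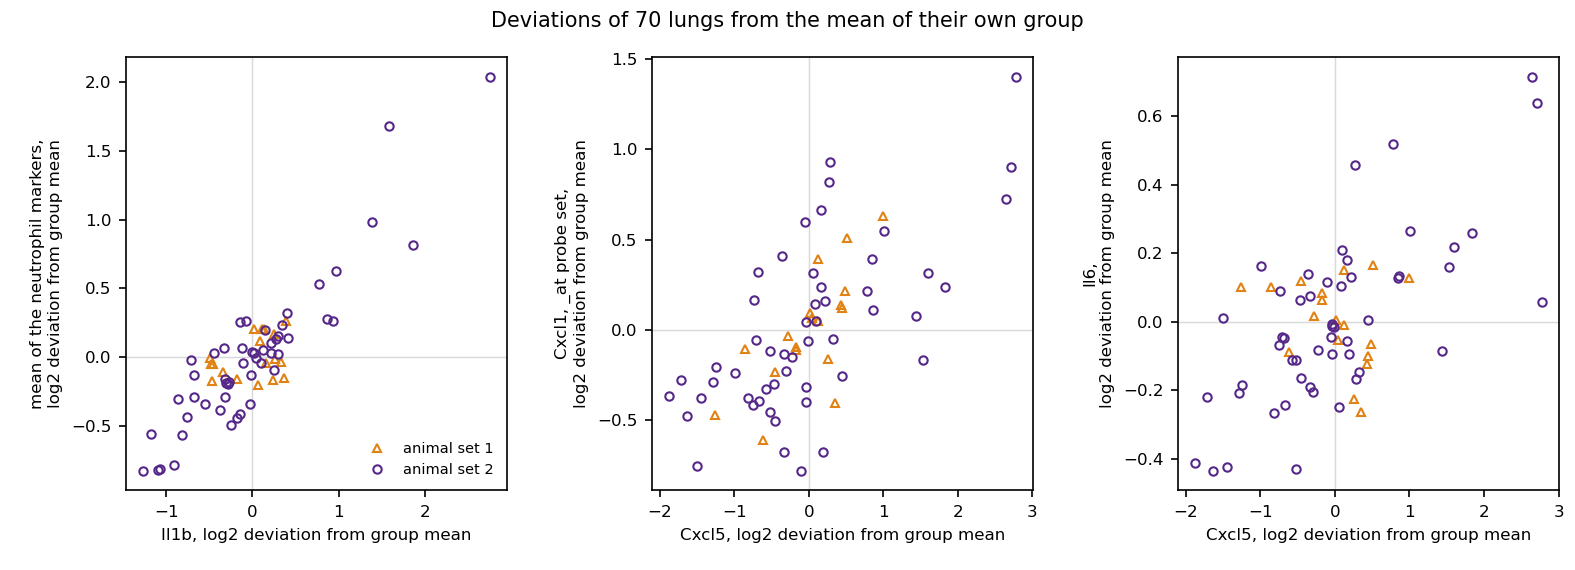
Deviations of 70 lungs from the mean of their own group, in log2 units: Il1b against the mean of the neutrophil markers (left), Cxcl5 against Cxcl1 by its _at probe set (middle) and Cxcl5 against Il6 (right), with triangles for set 1 and circles for set 2. The Pearson correlations over all lungs are 0.89, 0.66 and 0.62, and in the left and right plots the highest lungs are all from set 2.

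Genes with a pattern most like each of the 8 filtered genes were found by Pearson correlation over the 70 arrays after the mean of each animal set was taken off, as a description with no test. For Il1b they were Csf3r, the receptor of granulocyte colony-stimulating factor, at r = 0.92, then Stfa2l1 and Clec4d at 0.90. Those for Ccl8 were Cd177 (0.83) and the immunoglobulin light chain segments Iglv1 (0.71) and Igkv9-120 (0.69), and for Cxcl5 they were Parm1 and the clock output gene Nfil3 (both 0.66) and Rhou (0.61). Ccl20 was most like Sncg (0.64), Klhl32 (0.61) and Gclm (0.60), a subunit of the enzyme that starts glutathione synthesis. Cxcl15 was most like Rnase4 (0.73), Lyz1 (0.67), which encodes lysozyme, and Lrp2 (0.66), and Ccl2 like Msc (0.54), the immediate early gene Junb (0.52) and Cxcl1 (0.49). Tnf was most like Slc22a12 (0.83), Klk6 (0.83) and Col9a1 (0.82), and Cxcl1 by its chosen probe set like Tmem102 (0.68), Cfc1 and Pidd1 (both 0.67). By the _at probe set the nearest gene to Cxcl1 was Cxcl5 (0.71).

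Positive and negative chemicals were compared with 1 value per chemical, the difference from its control, 7 against 6. None of the 8 genes was called and 0.0% of all genes were, with 943 of 14593 genes at an unadjusted p under 0.05 (limma). Ccl8 differed from controls by a mean of 0.57 in positive and 0.26 in negative chemicals, a difference of 0.31 ± 0.40 (95% interval -0.54 to 1.15, adjusted p = 0.897, limma). The difference was 0.21 ± 0.14 for Ccl20 (interval -0.09 to 0.50), -0.29 ± 0.19 for Il1b (-0.70 to 0.11) and 0.34 ± 0.45 for Cxcl5 (-0.62 to 1.30). The largest values among positive chemicals were those of 1,5-naphthalenediamine for both Ccl8 and Ccl20.

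The vehicle controls were compared with each other to show the level of the genes without a chemical. None of the 8 genes was called between corn oil and feed controls of set 1 (0.0% of all genes called, 266 at an unadjusted p under 0.05), between corn oil and feed controls of set 2 (3.46%), between water and feed controls (33.7%) or between corn oil and water controls (22.9%). At an unadjusted p under 0.05, 1 of the 8 passed in each of the second and the third of these, Il1b and Cxcl5, and 0 in the others. Of all 14593 genes, 2959 passed at that level in the second and 6566 in the third. Il1b was 7.79 ± 0.73 (SD, n = 8) in corn oil and 6.73 ± 0.32 (SD, n = 4) in feed controls of set 2, a difference of 1.07 ± 0.46 (SE, adjusted p = 0.172, limma). Cxcl5 was lower in water than in feed controls by a difference of -1.52 ± 0.75 (adjusted p = 0.108), which was called without feed control 2-44 (-2.14, adjusted p = 0.0325) or 2-45 (-2.06, adjusted p = 0.0451). Il6 was lower in water controls by -0.48 ± 0.18 (adjusted p = 0.0364 in the fit without a filter), at 3.31 to 3.63 against 3.54 to 4.69, which overlapped. The second probe set of Cxcl15 was lower by -0.48 ± 0.13 in water than in feed controls (adjusted p = 0.00587), with no overlap, while the chosen one was 13.09 to 13.25 against 13.14 to 13.31.

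Called genes of the other lists in other chemicals are described singly, beside shares of all genes called of 4.09% for coumarin, 4.03% for 1,2-dibromoethane and 4.07% for 2,3-benzofuran. Cxcl17 rose in mice given coumarin (1.69 ± 0.24, adjusted p = 1.19e-06), 1,2-dibromoethane (1.20 ± 0.24, adjusted p = 0.00222) and 2,3-benzofuran (1.17 ± 0.32, adjusted p = 0.0247, limma). Cxcl14 fell with coumarin (-0.76) and 1,2-dibromoethane (-0.75), which share controls. Of 13 other CC chemokines, Ccl22 and Ccl5 fell with coumarin and Ccl22 and Ccl17 with N-methylolacrylamide, the former by 0.49 and 0.72 and the latter by 0.67 and 0.73. Under N-methylolacrylamide, where 17.9% of all genes were called, 3 of 10 inhibitors were lower, Tnfaip3 (-0.45), Tnip1 (-0.33) and Zc3h12a (-0.38), whose products restrain NF-kappaB signalling or degrade cytokine transcripts, with a list median of -0.35 beside -0.08 for all genes. Of 18 NF-kappaB subunits and targets 2 were lower there, Relb (-0.46) and Gadd45b (-0.41). Neither these counts nor the 2 of 13 CC chemokines were tested against that share. In 2,3-benzofuran Sod2, the mitochondrial superoxide dismutase, rose by 0.48 (adjusted p = 0.0113).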

How the data were processed

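Right lung lobe RNA of 70 mice was measured on Affymetrix mouse genome arrays, each from its own mouse. The authors deposited log2 probe set signals. This scale was read from the values (2.47 to 14.5, array medians 5.41 to 5.52), and no source used here says how probes were summarized or normalized. Gene symbols came from the platform annotation, updated by Entrez identifier (GRCm38.p6). Of 45101 probe sets, 34945 had 1 symbol, 932 several and 9160 none, and 64 controls were left out. The probe set with the highest mean stood for its gene, and genes above the 30th percentile were tested.

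A model with 18 group means was fitted to all arrays in limma (3.58.1, under R 4.3.3, with data.table version 1.17.8). The Benjamini-Hochberg adjustment ran over all genes of a comparison, genes under 0.05 were called, and intervals are 95% intervals. The fit was tested on simulated data. Tumour class was tested on 13 differences. Controls were matched by vehicle and animal set, a number the labels do not explain, and group and array number limit the precision. Animal identifiers in the labels differ between all arrays, so replicates are separate mice. Python 3.11.15 with numpy 2.4.6 and matplotlib 3.10.9 drew the figures.

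The 10 genes, the 22 other gene lists and the tests were chosen with earlier results of these data known. All 10 genes are named; from each other list up to 4 called genes with the smallest adjusted p are named in a comparison, and the 3 most alike genes per filtered gene. Alternatives were no filter or the 50th percentile, the mean of all probe sets, quantile normalization, only the arrays compared, array weights, robust estimation with a variance trend, controls of both sets pooled, the amount of RNA handed to the core as a block, each animal left out, and, chosen after seeing the data, the 3′ minus 5′ value as a covariate and the other probe sets of Cxcl1.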

Additional observations from a re-analysis of the deposited data

Results flagged for a closer look

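In groups of 4 to 8 mice, 120 combinations of gene and group were looked at for a single mouse far from the rest, and 11 were found (9.17%), where chance gives about 1 in 20. Animal 2-54, given 1,2-dibromoethane, accounted for 3 of them, with 10.49 for Il1b (nearest other mouse 6.98), 4.68 for Cxcl2 (3.67) and 5.56 for Ccl20 (5.33). Its neutrophil marker mean was 9.10, and the part of that in these values was not tested.

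Cxcl5 stood apart in a mouse given N-methylolacrylamide (5.81, nearest 3.86) and in a mouse fed diazinon (6.29, nearest 4.00). Tnf was high in 1 mouse each of 2,2-bis(bromomethyl)-1,3-propanediol (5.75), 2-chloromethylpyridine hydrochloride (6.36) and the water controls (6.15), and low in a feed control of set 2 (5.56). Ccl2 was high in another feed control of set 2 (5.48, nearest 5.25). Cxcl15 was low in 1 mouse given coumarin (13.19), by a gap of less than 0.05 to the next (13.24).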

How the results depend on the processing

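The 295 alternative values of single genes cover pairs of gene and comparison called in at least 1 setting, most of them uncalled in the main fit. Of these values, 268 kept their direction and side of the threshold, 22 newly passed it, 5 lost it and 0 reversed. All 5 losses were of Ccl8 and Ccl20 with 1,5-naphthalenediamine. Against feed controls 15 of 17 alternatives kept the call of Ccl8 and 14 of 16 that of Ccl20. Against N-(1-naphthyl)ethylenediamine dihydrochloride these were 15 of 16 and 15 of 15. The count of called genes among the 8 was 2 in mice fed 1,5-naphthalenediamine and ranged from 0 to 2 when single mice were left out; a filter at the 50th percentile, which drops Ccl20, Cxcl5 and Ccl2, gave 1, and array weights gave 3, adding Cxcl1 (adjusted p = 0.0499). Against N-(1-naphthyl)ethylenediamine dihydrochloride it was 2, ranged from 1 to 2 without single mice, and was 1 with the 50th percentile filter and 4 with array weights, which added Cxcl5 (adjusted p = 0.0139) and Cxcl15 (0.000641).

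Array weights gave 2 called genes in 2,2-bis(bromomethyl)-1,3-propanediol (Ccl8 1.10, adjusted p = 0.0111), 2 in malathion and 1 between corn oil and feed controls of set 2. In malathion only the arrays compared gave 1 and pooled controls 2, Ccl8 (adjusted p = 0.0241) and Cxcl15 (0.0401). In 1,2-dibromoethane quantile normalization, robust estimation and pooled controls each gave 1, Cxcl15 (adjusted p 0.0292 to 0.0390), and leaving out single mice gave 0 to 1. Between water and feed controls no filter, the mean of all probe sets, only the arrays compared and array weights each gave 1, and single mice left out gave 0 to 1. No paired analysis was possible because animal identifiers are not shared between groups. The causes were not tested.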
